A study of Mus musculus with 4 samples.

Results

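The genes of the major histocompatibility complex (MHC) and of antigen presentation were followed across 4 arrays of mouse prefrontal cortex. They were selected by name: every gene whose name on the array began with H2-, together with B2m, Tap1, Tap2, Tapbp, Psmb8, Psmb9, Cd74 and Ciita. This gave 50 gene names of 37074 on the array, measured by 84 probes of 56605, and the probes of a gene were kept apart. The genes were chosen with earlier results of these data known, so every difference between arrays is given as a description, without a test.

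The study crossed diet with genotype in B6J mice, 3 months old. The groups were wild-type starch, which the labels call the control, wild-type sucrose, Glo1 heterozygous starch and Glo1 heterozygous sucrose. Glo1 encodes glyoxalase 1, an enzyme that detoxifies methylglyoxal. How that allele was made is not given in the sources used here. Either diet began at postnatal day 21, right after weaning, and lasted about 70 days. In each group 3 RNA samples were mixed, and the mix went onto 1 array in a single dye. With 1 array a group, the spread between mice is unknown and no difference has a p-value or a replicate check. The 4 arrays shared 1 slide, so the place on the slide and the group cannot be told apart.

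MHC class I molecules sit on almost every cell and show peptides from inside the cell to CD8 T cells. Their heavy chain pairs with beta-2-microglobulin (B2m). The immunoproteasome subunits Psmb8 and Psmb9 help to cut the peptides, the transporter of Tap1 and Tap2 carries them into the endoplasmic reticulum, and tapasin (Tapbp) helps to load them. MHC class II molecules show peptides from endocytosed material to CD4 T cells. They are made by professional antigen-presenting cells with the invariant chain Cd74, under the control of the transactivator Ciita. In brain, microglia, border macrophages and endothelium are known sources of MHC transcripts, and interferons raise the genes of both classes.

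A level is the processed signal of a probe as a multiple of the 75th percentile of all non-control spots on its array. Levels are listed in the order wild-type starch, wild-type sucrose, heterozygous starch, heterozygous sucrose. A difference is the log2 ratio of 2 levels, and a probe is counted as higher or lower where it differs by 1.5-fold or more, a log2 difference of 0.585. The 75th percentiles lay between 1780.4 and 1928.9 intensity units, and 77.6 to 80.2% of the spots were well above background. The 300 probes printed 10 times on each array gave an SD of the difference between single spots of 2 arrays of 0.059 for probes in the brightest quartile. For the quartile below it this SD was 0.114, from as few as 5 probes. These SDs cover the error within an array and not the spread between mice. The dimmer quartiles held too few repeated probes for such an SD. There the error that the scanner software gave for 1 spot had a median of 0.15 for member probes in the second quartile and of 0.21 in the dimmest, on the log2 scale.

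Of the 84 member probes, 57 probes of 38 genes were well above background on all 4 arrays, and the counts below are over these. A further 8 probes were above background on 1 to 3 arrays, and 19 probes on none. All 6 probes of the classical class I genes were measured on all 4 arrays, as were 9 of 11 probes of the class I loading machinery and B2m. For class II, its invariant chain and Ciita this held for 15 of 22 probes, and for the nonclassical class I genes for 25 of 43. The nonclassical genes with no probe above background on any array were H2-M10.1, H2-M10.4, H2-M10.5, H2-M10.6 and H2-T18. H2-DMb2 and H2-Ea-ps of class II were also below background on all 4 arrays. B6J mice carry the H2b haplotype, whose H2-Ea gene gives no transcript. The name H2-Ke6 (Hsd17b8) belongs to a dehydrogenase gene inside the complex and not to an MHC chain, and its 2 probes are kept as a separate class.

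The member probes stood highest on the wild-type starch array. This held for 49 of the 57 probes (86.0%), against 32.1% of the 42094 probes measured on all 4 arrays. The lowest array was wild-type sucrose for 32 of them and heterozygous sucrose for 19. In wild-type mice 22 of the 57 probes were lower on sucrose than on starch by 1.5-fold or more (38.6%), against 3.26% of all probes. None was higher, against 2.72% of all probes, and 3 differed by 2-fold or more, against 1.32%. After normexp background correction 14 of the 57 were lower by 1.5-fold, where 1.89% of all probes were called in either direction. Over the members the median difference was -0.49, against 0.00 over all probes, and 53 of the 57 lay below 0. By class, 9 of 15 class II probes, 8 of 25 nonclassical, 3 of 9 loading and 2 of 6 classical class I probes were among the 22. Tissue markers differed in the same comparison: 4 of 6 striatum markers and 4 of 6 choroid plexus markers were higher by 1.5-fold on wild-type sucrose, with median differences of 0.96 and 1.099. Their part in the MHC values was not tested. The 2 H2-Ke6 probes gave -0.22 and -0.29. Of the 9 members in the brightest quartile none passed 1.5-fold, although their median was -0.47, and in the quartile below it 13 of 20 were lower, against 1.95% of all probes of that brightness.

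**Figure D1:**
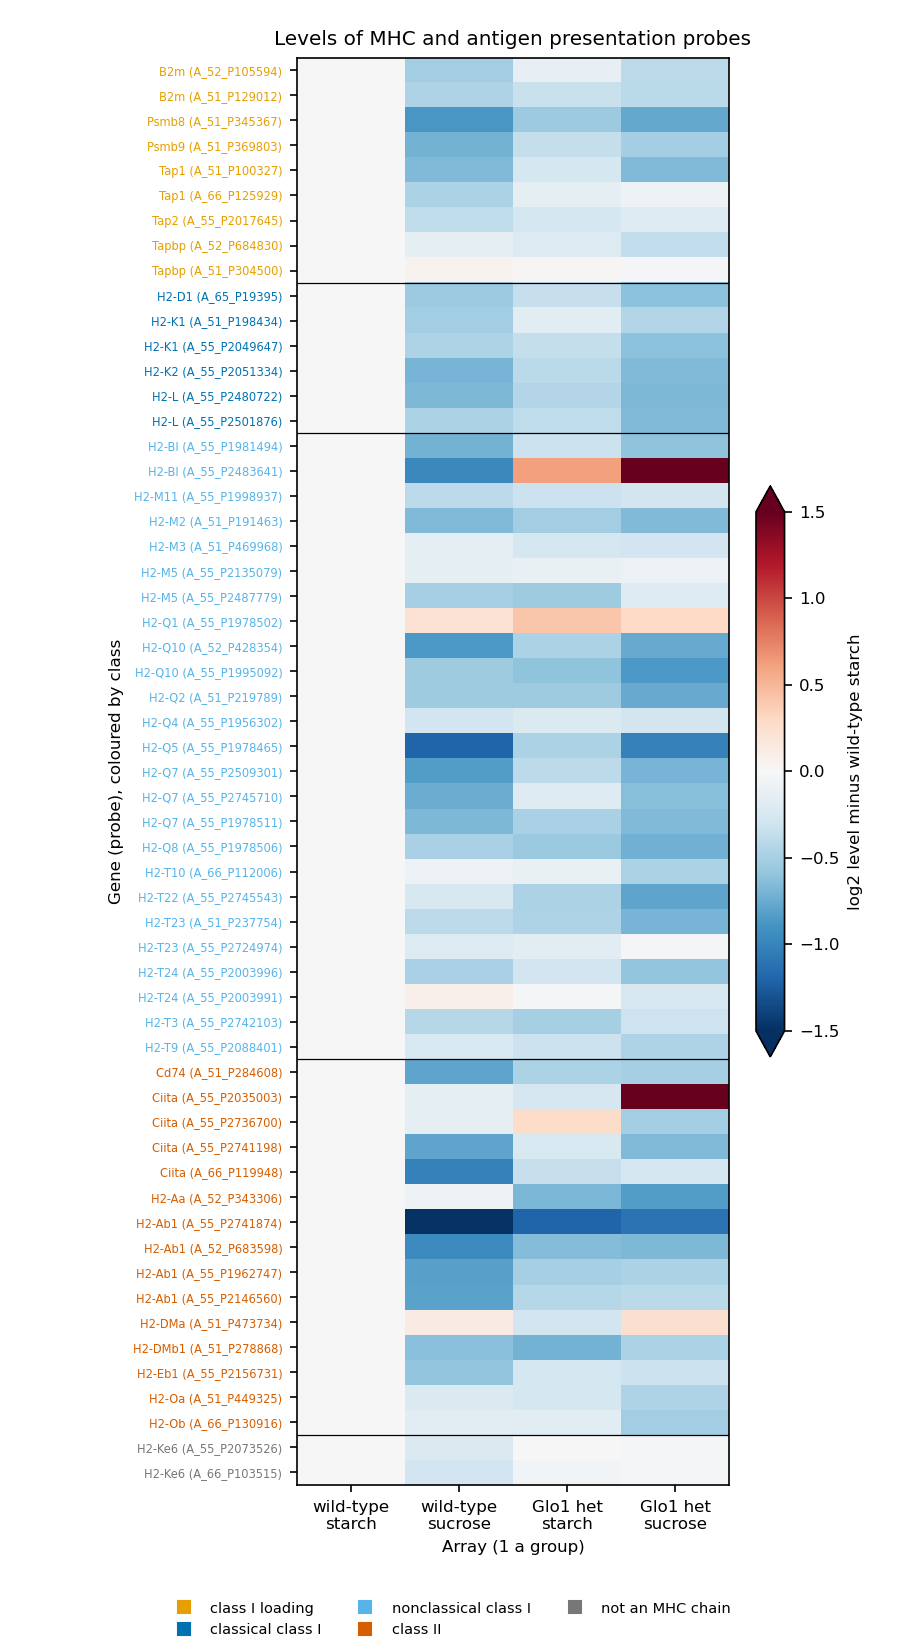
Level of each of the 57 member probes on the 4 arrays, as the log2 difference from the wild-type starch array (colour, cut at 1.5 on each side), with 1 row a probe and the gene names coloured by class. The wild-type sucrose column is blue for 53 of 57 probes, and 2 probes, of Ciita and H2-Bl, are dark red on the heterozygous sucrose array.

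In Glo1 heterozygous mice the median diet difference of the members was nearer 0. There 2 probes were higher on sucrose (2.95% of all probes were) and 1 was lower (1.9% of all probes were), and 1 differed by 2-fold or more (1.46% of all probes did). The median was -0.16, against 0.00 over all probes, with 41 of 57 below 0. In this comparison 6 of 6 choroid plexus markers were higher and 5 of 6 striatum markers lower by 1.5-fold, with medians of 5.58 and -0.86, and their part was not tested. The diet comparisons of the 2 genotypes share no array. Lower on sucrose in both genotypes, at any size, were 38 of 57 member probes (66.7%), against 29.5% of all probes. The difference of the 2 diet differences, heterozygous minus wild-type, had a median of 0.33 over the members and 0.00 over all probes, and 48 of the 57 lay above 0. Without replicates this difference was not tested.

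**Figure D2:**
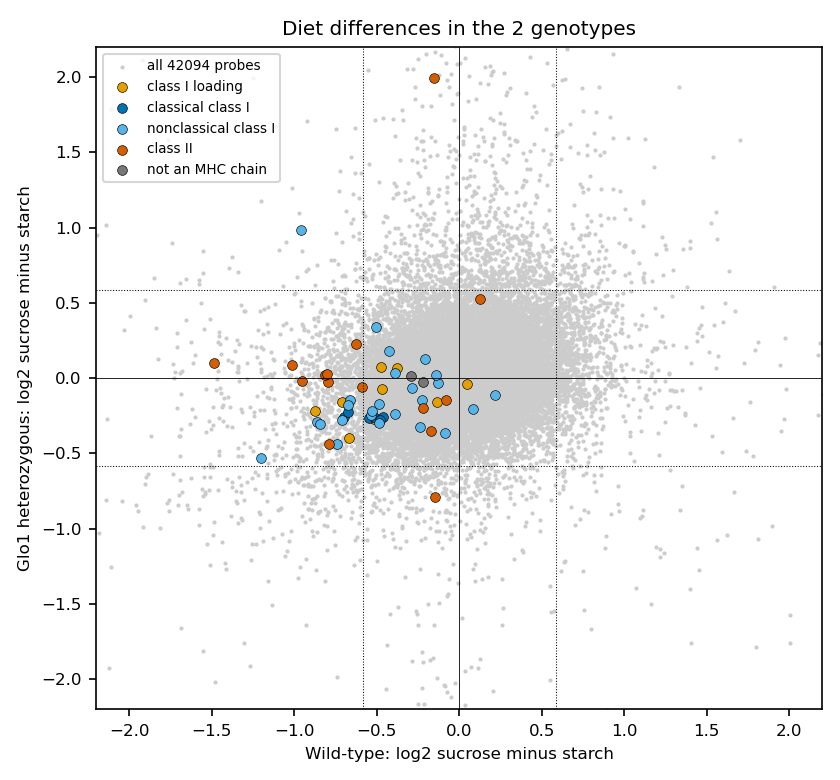
Diet difference of each probe in wild-type mice (x axis, log2 sucrose minus starch) against that in Glo1 heterozygous mice (y axis), with all 42094 probes in grey and the 57 members coloured by class. Dotted lines mark 1.5-fold, and 174 grey probes fall outside the axes. Of the 57 members, 53 lie left of 0 on the x axis, 22 of them beyond the left dotted line, and 3 lie beyond a dotted line on the y axis: a Ciita probe at 1.99, H2-Bl at 0.99 and another Ciita probe at -0.79.

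On starch, heterozygous mice had lower levels than wild-type mice in 52 of 57 member probes, with a median of -0.32 against -0.01 over all probes. This comparison shares the wild-type starch array with the diet comparison in wild-type mice, so the 2 are not independent. By 1.5-fold or more 5 probes were lower, against 2.61% of all probes, and 1 was higher, against 2.27%. A 2-fold difference was reached by 1 member, against 0.938% of all probes. After normexp background correction 2 members were lower by 1.5-fold and none was higher, where 1.24% of all probes were called in either direction. Here 3 of 6 striatum markers were higher in heterozygous mice by 1.5-fold (median 0.65). Of 6 choroid plexus markers 1 was higher and 2 were lower by 1.5-fold (median 0.10). On sucrose the order turned for most members: 19 of 57 were lower in heterozygous mice and the median was 0.08, against -0.01 over all probes. Here 3 probes were higher by 1.5-fold (2.87% of all probes were), 1 was lower (1.38% of all probes were; 2 members with median scaling) and 2 differed by 2-fold (1.43% of all probes did). Tissue markers differed here too: 6 of 6 striatum markers were lower and 6 of 6 choroid plexus markers higher in heterozygous mice by 1.5-fold, with medians of -1.27 and 4.62. Their part in the MHC values was not tested. At any size, 17 of 57 members were lower in heterozygous mice on both diets (29.8%), against 31.9% of all probes.

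**Figure D3:**
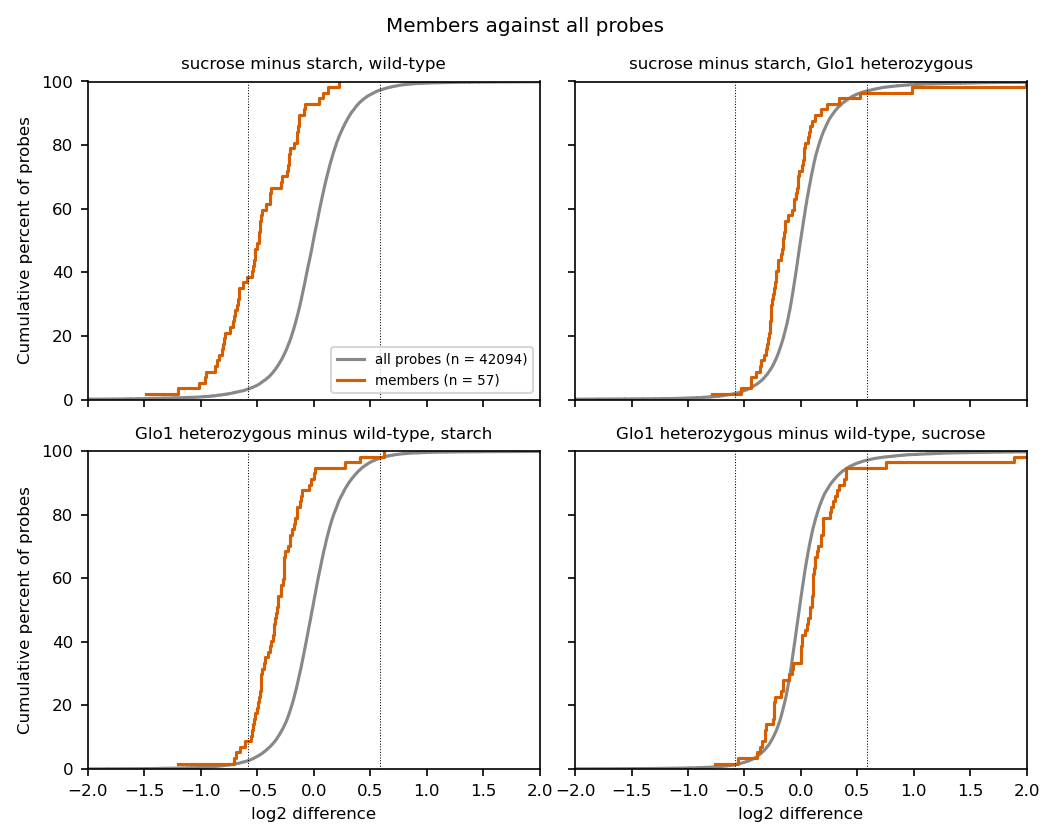
Cumulative percent of probes (y axis) by log2 difference (x axis, shown to 2 on each side) in the 4 comparisons, for the 57 member probes (orange) and all 42094 probes (grey); dotted lines mark 1.5-fold. The member curve lies to the left of the grey one in both panels that use the wild-type starch array, with medians of -0.49 and -0.32.

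The differences of the classical class I heavy chains lay close together. The brighter H2-K1 probe (A_51_P198434, chr17:34133055-34133114 on build mm9) had levels of 6.12, 4.28, 5.42 and 4.52. The H2-D1 probe (A_65_P19395, chr17:35403886-35403945) had levels of 2.26, 1.55, 1.77 and 1.48. Both were highest on the wild-type starch array. For diet, H2-K1 gave -0.52 in the wild-type pools and -0.26 in the heterozygous ones. For H2-D1 the values were -0.55 and -0.26. All 6 classical class I probes were lower on sucrose in both genotypes, from -0.70 to -0.46 in wild-type and from -0.28 to -0.23 in heterozygous mice. H2-K2, an H2-K1 relative, was among the 2 genes of this class past 1.5-fold, with levels of 1.72, 1.06, 1.30 and 1.09 and a difference of -0.70 in wild-type mice. The other was H2-L (A_55_P2480722), with levels of 1.16, 0.727, 0.855 and 0.729 and a difference of -0.68. The H2b haplotype has no H2-L gene, and the probe of that name with a position (A_55_P2501876, chr17:35403191-35403250) lies beside the H2-D1 probe, so its signal cannot be told apart from that of H2-D1.

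Class I heavy chains are close relatives, and some probes share sequence. The measured probes, without that of Cd74, were compared only with each other. Their match to the transcripts of related genes was not examined. Of 1514 pairs of measured member probes of different names, 1 pair matched at 80% or more of the bases in an ungapped overlap of at least 40 bases: the mapped H2-L probe and the brighter H2-T23 probe, at 88.9% of 54 bases. These 2 and the dimmer H2-K1 probe have a run of 29 bases in common. It is shown in capitals in the 60-base probes, which lie in the sequence of the membrane-spanning part of the chain.
H2-K1 (A_55_P2049647): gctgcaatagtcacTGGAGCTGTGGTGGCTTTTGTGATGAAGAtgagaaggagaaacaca
H2-L (A_55_P2501876): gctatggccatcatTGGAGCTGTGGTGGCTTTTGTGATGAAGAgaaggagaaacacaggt
H2-T23 (A_51_P237754): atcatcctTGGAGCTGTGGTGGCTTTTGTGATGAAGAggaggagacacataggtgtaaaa
The shares of each transcript in these signals were not separated. The wild-type diet difference was -0.46, -0.48 and -0.39 in that order. The genotype difference on sucrose was -0.16, -0.18 and -0.31. All 3 probes were thus lower on sucrose and lower in heterozygous mice, where the H2-K1 probe outside this run (A_51_P198434) differed by 0.08 on sucrose.

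The light chain and the loading machinery of class I followed the heavy chains in wild-type mice, except the brighter Tapbp probe and a dim Psmb9 probe. B2m, the common light chain, is on chromosome 2. Its brighter probe (A_51_P129012, chr2:121978401-121978460) had levels of 10.9, 7.92, 8.69 and 8.25, and was highest on the wild-type starch array. The diet difference was -0.47 in wild-type and -0.07 in heterozygous mice. Its dimmer probe gave -0.52 and -0.27. Psmb8 (A_51_P345367, chr17:34337771-34337830), an immunoproteasome subunit, had levels of 0.413, 0.225, 0.282 and 0.242. The wild-type starch level was 1.5-fold or more above that on wild-type sucrose, with a diet difference of -0.87, and of -0.22 in heterozygous mice. Its partner subunit Psmb9 (A_51_P369803) had levels of 0.392, 0.239, 0.307 and 0.275 and differed by -0.71 and -0.16. The 2 Tap1 probes gave -0.67 and -0.47 in wild-type mice, the first at levels from 0.015 to 0.024. The first of these was -0.36 after normexp background correction, short of 1.5-fold. Tap2 gave -0.38 (wild-type) and 0.07 (heterozygous). The brighter probe of Tapbp, tapasin, had levels of 2.44, 2.53, 2.47 and 2.40, with no difference past 0.08 in size. Its dimmer probe was below 0 in all 4 comparisons, at -0.13 and -0.16 for diet and -0.21 and -0.24 for genotype. A second Psmb9 probe (A_55_P2038983) passed background on wild-type sucrose alone. It was there at least 2.44 higher on the log2 scale than on wild-type starch, opposite to the main Psmb9 probe.

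Over probes, class II had the lowest median of the classes for diet in the wild-type pools, at -0.63. Its median in the heterozygous pools was -0.02. Of its 15 probes 4 were of H2-Ab1 and 4 of Ciita, and class medians over gene means were not computed, so the ranking holds for probes only. H2-Ab1, the beta chain of the I-A molecule, was measured by 4 probes. The probe at chr17:34406296-34406355 (A_55_P1962747) had levels of 1.03, 0.584, 0.725 and 0.737. All 4 were lower on sucrose in wild-type mice by 1.5-fold or more, at -0.80, -0.81, -0.95 and -1.49. In heterozygous mice the same probes lay between -0.02 and 0.10. On starch 2 of them were also lower in heterozygous than in wild-type mice by 1.5-fold, at -1.20 and -0.65 (-0.75 and -0.56 after normexp). The first 2 share 41 bases and are not independent measures. The probe at -1.49 (A_55_P2741874) was -0.94 after normexp background correction. Cd74, the invariant chain (A_51_P284608, chr18:60972075-60972132), had levels of 0.40, 0.23, 0.288 and 0.283. It was highest on wild-type starch, by 1.5-fold against wild-type sucrose only. Its diet difference was -0.80 in the wild-type pools and -0.03 in the heterozygous ones. H2-Eb1, the beta chain of I-E, had levels of 0.863, 0.573, 0.72 and 0.691 and differed by -0.59 in wild-type mice, just past 1.5-fold (-0.56 after normexp). H2-DMb1, a chain of the peptide exchange molecule H2-DM, had levels of 0.314, 0.203, 0.192 and 0.225. Its highest level was on wild-type starch, with -0.63 for diet in wild-type mice (-0.53 after normexp, short of 1.5-fold) and -0.71 for genotype on starch.

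Not every class II gene shared this order. H2-DMa, the partner chain of H2-DMb1, had levels of 0.383, 0.418, 0.313 and 0.451, and was highest on the heterozygous sucrose array. Its diet difference was 0.13 in wild-type and 0.53 in heterozygous mice. H2-Aa, the alpha chain that pairs with H2-Ab1 (A_52_P343306, chr17:34421285-34421344), had levels of 0.0709, 0.0671, 0.044 and 0.0397. It was low in both heterozygous pools and high in both wild-type pools. Its genotype difference was -0.69 on starch and -0.76 on sucrose, and its diet difference -0.08 and -0.15. After normexp the genotype differences were -0.47 and -0.43, short of 1.5-fold, and no other member was lower by 1.5-fold in heterozygous mice on both diets. H2-Oa and H2-Ob, chains of the DM inhibitor H2-DO, differed by -0.22 and -0.17 with diet in wild-type mice. H2-Eb2 had 1 probe above background on 3 arrays and not on wild-type sucrose, where it was at least 1.19 lower than on starch on the log2 scale.

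Ciita, which switches on the class II genes, was measured by 4 probes on chromosome 16 that disagreed in all comparisons but diet in wild-type mice. The probe at chr16:10526458-10526517 (A_66_P119948) had levels of 0.0458, 0.0227, 0.036 and 0.0382. It was lowest on wild-type sucrose, by -1.01 against starch (-0.57 after normexp). The probe at chr16:10492271-10492330 (A_55_P2035003) had levels of 0.013, 0.0117, 0.0109 and 0.0432, high on heterozygous sucrose alone. Its difference there was 1.99 against starch and 1.89 against wild-type, and 0.65 and 0.71 after normexp. The probe A_55_P2736700 was -0.79 with diet in heterozygous mice, and A_55_P2741198 was -0.79 with diet in wild-type mice (-0.34 after normexp). All 4 probes were below 0 for diet in the wild-type pools, from -1.01 to -0.15, and no single direction can be given in the other comparisons.

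The nonclassical class I genes of the Q region followed the classical chains. H2-Q7 encodes a Qa-2 antigen, and its brightest probe (A_55_P1978511, chr17:35580315-35580374) had levels of 1.77, 1.11, 1.26 and 1.11. Its 3 probes were lower on sucrose in wild-type mice by -0.84, -0.74 (-0.53 after normexp, short of 1.5-fold) and -0.67. H2-Q5 had levels of 0.172, 0.075, 0.124 and 0.0856, with diet differences of -1.20 (wild-type) and -0.53 (heterozygous), so it was low on both sucrose arrays. H2-Q10, known as a secreted class I chain of liver, had 2 measured probes, at -0.86 and -0.54 in wild-type mice. The dimmer one was also -0.61 in heterozygous against wild-type mice on starch (-0.45 after normexp). In all, 9 of 10 measured H2-Q probes were lower on sucrose in both genotypes (29.5% of all probes were). The exception, H2-Q1, had its lowest level on wild-type starch, at 0.0698 against 0.0812, 0.0928 and 0.0858. H2-Q4 differed by -0.28, with levels of 40.1, 32.9, 34.6 and 33.1. H2-Q2 and H2-Q8 were lower on sucrose by -0.53 and -0.49 in wild-type mice and in heterozygotes on starch by -0.54 and -0.56.

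The T region held members that were lower in heterozygous mice on both diets. H2-T23 encodes Qa-1, which presents leader peptides of other class I chains to NK and CD8 T cell receptors. Its brighter probe (A_51_P237754, chr17:36167338-36167574) had levels of 2.74, 2.09, 1.99 and 1.69, lowest in both heterozygous pools. Its genotype difference was -0.46 on starch and -0.31 on sucrose, and its dimmer probe gave -0.15 and 0.18. H2-T22, a ligand of gamma delta T cell receptors, had levels of 0.842, 0.714, 0.608 and 0.486. It was also lower in both heterozygous pools, by -0.47 and -0.55. Of the 8 measured H2-T probes, 6 were lower in heterozygous mice on both diets and 5 were lower on sucrose in both genotypes (31.9% and 29.5% of all probes were). None passed 1.5-fold as reported (H2-T22 was -0.60 for genotype on sucrose with median scaling, past it), and the set was picked after its values had been seen.

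H2-Bl differed in direction between the genotypes. Its probe A_55_P2483641 (chr17:36217134-36217193) had levels of 0.0556, 0.0285, 0.0855 and 0.169. The highest level was on heterozygous sucrose and the lowest on wild-type sucrose, a difference of 2.57 (1.59 after normexp). With diet it was -0.96 in the wild-type pools (-0.56 after normexp, short of 1.5-fold) and 0.99 in the heterozygous ones (0.71 after normexp). Its other probe, which has no position in the files, gave -0.71 (-0.56 after normexp) and -0.28 and so did not share the high level. In the M region H2-M2 was -0.66 in wild-type mice (levels of 0.557, 0.352, 0.389 and 0.352), while H2-M3, which presents formylated peptides, was -0.13. The remaining measured probes, of H2-M5, H2-M11, H2-T3, H2-T9, H2-T10 and H2-T24, lay between -0.50 and 0.09 in this comparison. H2-M1 was above background on both wild-type arrays and on neither heterozygous one, at least 0.56 lower in heterozygous mice on starch and 0.69 on sucrose, on the log2 scale. The bounds for H2-M9, H2-M10.2, a second H2-M10.3 probe and a dim H2-T3 probe were all under 1.5-fold. A probe of H2-M10.3, a gene family known from vomeronasal neurons, was above background on heterozygous sucrose alone, at least 2.80 higher than on starch on the log2 scale.

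The probes of Ciita, H2-Bl and H2-M10.3 that were highest on heterozygous sucrose stood beside tissue markers that differed on that array and on others. The summed level of 6 choroid plexus markers was 0.581, 1.996, 0.532 and 68.0, and all 6 were 1.5-fold or more higher there with diet. The summed level of 6 striatum markers was 25.2, 39.2, 36.3 and 21.6. The part of either in the values of these probes was not tested.

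Glo1 lies on chromosome 17 with most of the members. The 73 member probes on that chromosome were 3.33 to 6.89 Mb from its brightest probe, which had levels of 4.04, 5.53, 2.74 and 3.04 and so was lower in both heterozygous pools. Of the 48 measured probes on chromosome 17, 17 were lower in heterozygous mice on both diets (35.4%), near the 31.9% of all probes. None of the 7 probes on chromosomes 2, 16 and 18, of which 4 are of Ciita, was. On starch the medians of these 2 sets were -0.34 and -0.26, and on sucrose 0.07 and 0.13. The part of DNA linked to the Glo1 allele in the genotype differences was not tested.

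**Figure D4:**
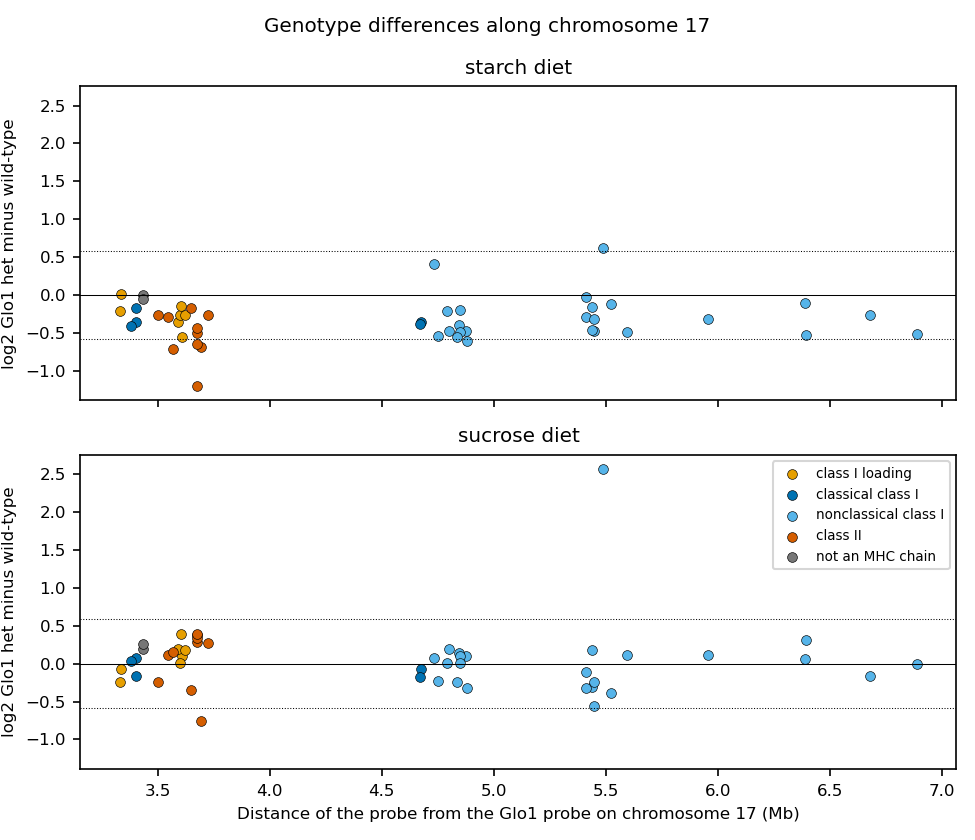
Genotype difference (y axis, log2 Glo1 heterozygous minus wild-type) of the 48 measured member probes on chromosome 17 by distance from the Glo1 probe (x axis, Mb), on starch (top) and sucrose (bottom), coloured by class; dotted lines mark 1.5-fold. Points lie mostly below 0 on starch along the whole stretch from 3.33 to 6.89 Mb, and on both sides of 0 on sucrose.

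Promoters were read from RefSeq on assembly GRCm38.p6, 250 bases before to 50 after a gene's start, and 38 promoters of 35 member genes matched by symbol. Cd74 was left out of this search. The promoters are not independent: H2-K1, H2-DMa and H2-M9 have alternative starts, the windows of Psmb9 and Tap1 overlap, and class I genes are close relatives. The Y box, ATTGG on either strand (CCAAT on the other), is the element bound by NF-Y in MHC promoters. It was present in 33 of the 38 (86.8%), against 37.4% of all 32851 promoters. It was found in 22 of 27 promoters of genes measured on all 4 arrays and in 11 of 11 of the other genes, so it did not separate them. The core of the X2 box, TGACG, was in 16 (42.1%), against 20.8%. The kB letters GGGANTTCC were in 3 (7.89%), against 1.68%, and the interferon-stimulated element core GAAANNGAA in 3 (7.89%), against 8.56%. Added after the promoters had been read, GGGATTCCC was in 4 of the 38, of H2-K1, H2-D1 and H2-Q7, against 0.353% of all promoters, and GAANNGAAA in 8 (21.1%), against 7.52%. The letters GAAANNGAA and GAANNGAAA can overlap, as can the kB letters, and a match is not a measured binding site. The 200 bases before the start are shown for H2-K1 and H2-D1, B2m and the class II chains H2-Aa and H2-Eb1, as examples that each hold a Y box, with ATTGG or CCAAT and GGGATTCCC in capitals.
H2-K1 (chr17:34000348-34000547, minus strand): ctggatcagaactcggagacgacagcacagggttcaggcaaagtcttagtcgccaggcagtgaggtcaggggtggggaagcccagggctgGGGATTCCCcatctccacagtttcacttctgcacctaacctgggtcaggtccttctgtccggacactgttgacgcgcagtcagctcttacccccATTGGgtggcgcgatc
H2-D1 (chr17:35262894-35263093, plus strand): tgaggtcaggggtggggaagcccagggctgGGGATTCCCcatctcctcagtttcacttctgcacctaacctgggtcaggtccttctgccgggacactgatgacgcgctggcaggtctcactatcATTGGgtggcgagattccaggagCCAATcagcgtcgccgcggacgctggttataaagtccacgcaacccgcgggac
B2m (chr2:122147487-122147686, plus strand): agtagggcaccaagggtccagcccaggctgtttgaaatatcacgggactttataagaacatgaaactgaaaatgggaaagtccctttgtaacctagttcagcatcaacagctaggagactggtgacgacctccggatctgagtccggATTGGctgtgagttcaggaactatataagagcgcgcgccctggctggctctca
H2-Aa (chr17:34287824-34288023, minus strand): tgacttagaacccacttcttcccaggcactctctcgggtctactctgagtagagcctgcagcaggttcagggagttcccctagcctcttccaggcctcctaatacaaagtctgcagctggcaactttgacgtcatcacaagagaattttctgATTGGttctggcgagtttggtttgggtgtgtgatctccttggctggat
H2-Eb1 (chr17:34305667-34305866, plus strand): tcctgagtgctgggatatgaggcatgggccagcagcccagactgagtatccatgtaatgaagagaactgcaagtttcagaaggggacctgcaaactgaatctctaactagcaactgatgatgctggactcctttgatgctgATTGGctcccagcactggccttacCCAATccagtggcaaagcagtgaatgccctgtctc
Among these windows, which were picked, the letters GGGATTCCC are in those of H2-K1 and H2-D1. Psmb9 and Tap1 start back to back: their 200-base windows, at chr17:34187331-34187530 on the minus strand and chr17:34187356-34187555 on the plus strand, overlap.

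Genes of the same pathways that the name rule left out had smaller median diet differences in wild-type mice than the members. Each was read from its brightest probe, while the members kept all probes, so lists and members are not measured alike. Of 16 further class I pathway genes, 15 were measured (Psme2 was not found under that name), and their median diet difference was -0.12 in the wild-type pools. Nlrc5, the transactivator of class I genes, was alone past 1.5-fold there, at levels of 0.0827, 0.0472, 0.0793 and 0.0539, which gave diet differences of -0.81 (wild-type) and -0.56 (heterozygous). Pdia3 and Calr, chaperones of the loading complex, were -0.54 and -0.46 in wild-type mice. None of the 15 passed 1.5-fold in the 3 other comparisons. The 10 further class II genes had a median of -0.11 in wild-type mice, and none passed 1.5-fold with diet. Cd40, a costimulatory receptor, was -0.70 on starch by genotype, at levels of 0.0117 to 0.0189. Ctss, which trims the invariant chain, was -0.41 with diet in wild-type mice.

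The interferon response list was lower on sucrose whichever the genotype. Of 20 such genes, 12 were lower by 1.5-fold in wild-type and 9 in heterozygous mice, none was higher, and the medians were -0.65 and -0.55. The class II members had medians of -0.63 and -0.02 in the same comparisons, and the classical class I members -0.53 and -0.26. Cxcl10, a T cell attractant, had levels of 0.191, 0.0493, 0.0978 and 0.0545, highest on wild-type starch. By genotype the interferon list had medians of -0.04 on starch and 0.07 on sucrose, with 4 genes lower on starch.

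Markers of cell types that carry MHC molecules were read beside these values. The summed level of 12 microglia markers was 128.3, 121.1, 115.4 and 119.4, and most of this sum came from Siglech, Itgam and Csf1r. Their median difference was -0.16 for diet in wild-type pools and -0.14 for genotype on starch, with 8 and 11 of 12 below 0. C1qa, a complement chain, had levels of 1.82, 1.06, 1.15 and 1.06, highest on wild-type starch as the members were. It was past 1.5-fold for diet in wild-type pools (-0.78) and for genotype on starch (-0.66). C1qb gave -0.49 and -0.51 in these comparisons and Tmem119 gave -0.47 and -0.40. The part of microglia in the MHC values was not tested. The sum of 6 endothelial markers was 31.4, 23.1, 28.1 and 23.1, highest on wild-type starch and lower on both sucrose arrays. Most of this difference came from Ly6c1, at 19.1, 12.04, 15.8 and 12.05, and 1 of the 6 was past 1.5-fold for diet in wild-type pools, with a median of -0.20 over the list. Its part in the MHC values was not tested. The sum of 6 border macrophage markers was 1.765, 1.551, 1.928 and 1.519, lower on both sucrose arrays. For diet 5 of 6 were below 0 in wild-type and 6 of 6 in heterozygous pools, with medians of -0.25 and -0.35. In each genotype 1 of the 6 was lower by 1.5-fold. The part of border macrophages in the MHC values was not tested. The sum of 4 B cell markers lay between 0.102 and 0.117. For dendritic cells the sum of 4 of 6 markers was 0.732 to 0.756, and the defining markers Xcr1 and Clec9a were not above background on all 4 arrays. For T and NK cells the sum of 3 of 6 was 2.12, 2.034, 1.783 and 1.855, most of it from Cd4. All 3 were below 0 for diet in wild-type pools and for genotype on starch (medians -0.24 and -0.23), and none passed 1.5-fold. Cd3g, Cd8a and Ncr1 were not above background on all 4 arrays. The sum of 4 blood markers, haemoglobins and Alas2, was 128.3, 62.4, 106.7 and 70.0, so it was highest on wild-type starch and lowest on wild-type sucrose, as for the members. All 4 blood markers were lower on sucrose by 1.5-fold in both genotypes, and their part in the MHC values was not tested. The sum of 6 cortical excitatory neuron markers, all measured, was 62.1, 85.2, 78.2 and 80.6, lowest on wild-type starch. For diet in wild-type pools all 6 were above 0 (median 0.29), and all 4 astrocyte and all 4 oligodendrocyte markers were below 0 (medians -0.17 and -0.24). The sums of these lists were 27.6 to 30.8 for astrocytes and 66.3 to 75.01 for oligodendrocytes. For genotype on sucrose 1 of 4 astrocyte markers, Gfap, was past 1.5-fold (1.155), and 2 were below 0. The sum of 5 meningeal fibroblast markers was 7.54, 7.43, 8.12 and 10.2, highest on heterozygous sucrose. There 1 of the 5, Dcn, was past 1.5-fold for diet (0.815) and for genotype (0.946), while 2 of the 5 were below 0 for diet. The part of these cell types in the MHC values was not tested. In tissue pools, fewer cells of a type and less RNA per cell cannot be told apart.

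**Figure D5:**
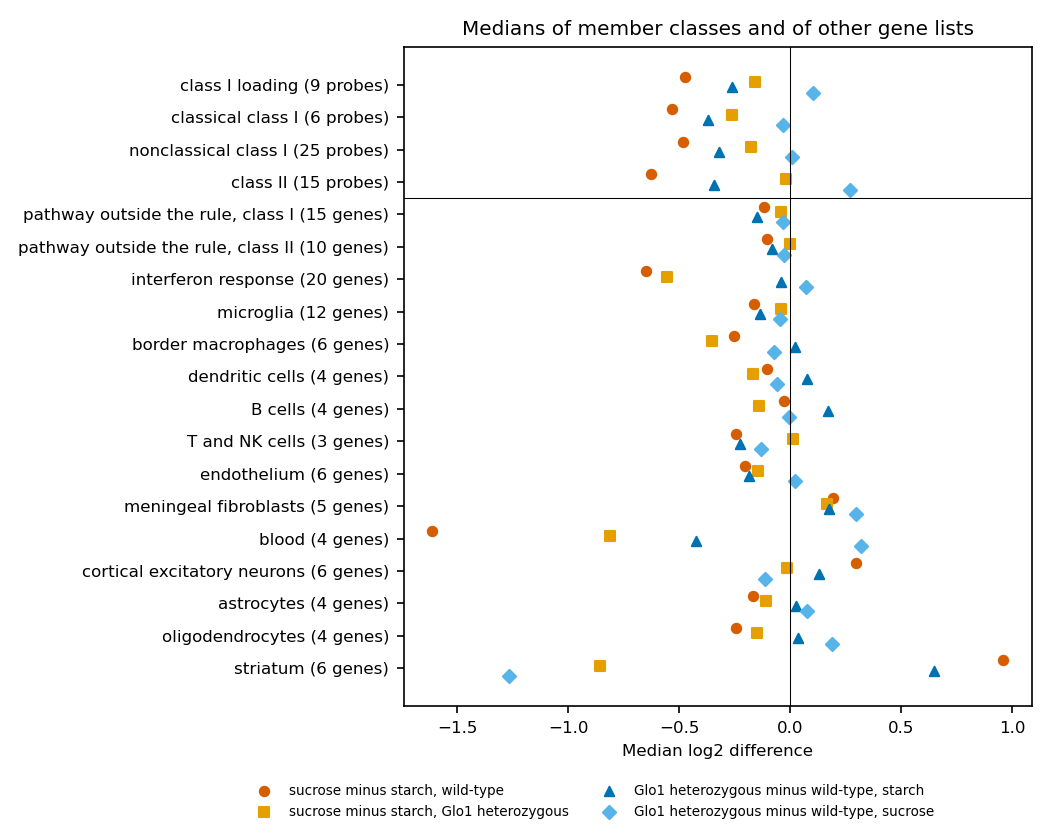
Median log2 difference (x axis) of 4 member classes (above the line, over probes) and of 15 other gene lists (below it) in the 4 comparisons, marked by shape and colour. The lists are over genes, each by its brightest probe. For diet, class II lies at -0.63 (wild-type) and -0.02 (heterozygous), while the interferon list lies at -0.65 and -0.55 and the blood list at -1.61 and -0.81; the choroid plexus list, whose median was 5.58 for diet in heterozygous mice, is left out.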

How the data were processed

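Total RNA of mouse prefrontal cortex, 200 ng of each pool, was labelled with Cy3 and hybridised to Agilent arrays, per the labels. The deposited intensity values are the processed signals of Agilent Feature Extraction 11.5.1.1, per the submitters' processing notes and the file headers, with background already subtracted and no scaling across arrays. A series matrix that the authors deposited holds ratio values, which equal the processed signal divided by 1 number an array, close to its 75th percentile. Probe positions are those of the files, on mm9; exons were not assigned, as no mm9 annotation was used here.

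Each processed signal was divided by the 75th percentile of its array's non-control spots and put on the log2 scale with Python 3.11.15, numpy 2.4.6 and pandas 2.3.3. Control spots and outlier spots were left out, and spots of a probe were averaged. No spot was saturated. The number of arrays limits the precision. Where only 1 array of a pair had a probe above background, the difference is a bound: the dim side is set to its own signal or to that array's lowest signal above background, whichever is higher. The normexp (offset 50) and quantile alternatives used limma 3.58.1 in R 4.3.3; the others were median scaling, no filter on dim probes, brighter probes, outlier spots kept, the series matrix and gene means. Counting, differences and the averaging of spots were tested on simulated data, and the bounds were not.

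By rule, the text names members outside H2-, classical class I and class II genes and H2- probes past 1.5-fold; others are named for context after their values were seen. Pathway genes of the 2 lists outside the name rule are named past 1.5-fold. Pdia3, Calr and Ctss, Cxcl10 of the interferon list and C1qa, C1qb and Tmem119 of the microglia list were named after their values were seen. So were Ly6c1, Cd4, Gfap and Dcn of the other cell type lists. The members, the 16 gene lists and the rule were chosen with earlier results of these data known. Each gene of these lists was read from its brightest probe, while all probes of a member were kept apart. Comparisons that share an array are not independent.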

Additional observations from a re-analysis of the deposited data

Results flagged for a closer look

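The H2-Bl probe A_55_P2483641 moved in opposite directions with diet: it was lower on sucrose in the wild-type pool (-0.96) and higher in the heterozygous pool (0.99), a difference of 1.95 on the log2 scale between the 2 diet differences. After normexp background correction the values were -0.56, short of 1.5-fold, 0.71 and 1.27. Each pool is 1 array, so the difference was not tested. The other H2-Bl probe was lower on sucrose in both pools.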

How the results depend on the processing

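The medians over all measured member probes in the 4 comparisons kept their sign under the 8 alternatives (class medians and the median of the difference between diet differences were not recomputed), and the median over all probes shifted by under 0.1. Without a filter on dim probes the wild-type diet median was -0.32 (reported: -0.49) and that for diet in heterozygous mice -0.06 (reported: -0.16). For genotype on sucrose the median of 0.08 was 0.04 with median scaling and 0.05 with normexp. Counts of members past 1.5-fold in either direction were 22 for diet in wild-type, 3 for diet in heterozygous, 6 for genotype on starch and 4 for genotype on sucrose. With normexp background correction they were 14, 3, 2 and 2 of 57, where 1.89, 1.82, 1.24 and 1.58% of all probes were called. Without the filter they were 27, 7, 12 and 14 of 84, where 13.2, 11.4, 12.3 and 11.3% of all probes were called, so the counts for diet in heterozygous mice and for genotype on starch were below or near that share. Over the 29 brighter probes they were 13, 0, 2 and 0 (2.2, 1.72, 1.44 and 1.26% of all brighter probes). Over the 38 gene means they were 12, 0, 3 and 3 (5.9, 5.23, 4.64 and 4.51% of all gene means). For genotype on sucrose, 3 of the 4 calls were higher as reported, 3 of 5 with median scaling, 2 of 2 with normexp and 7 of 14 without the filter. Of 35 named values past 1.5-fold, 21 stayed past it with normexp and 34 with quantile normalisation; all 35 did under median scaling, with outlier spots kept and in the series matrix. The cause was not tested. No paired analysis was possible because each group has 1 array, and no array could be left out of a comparison. Of the 57 probes, 8 lie in the dimmest quartile, where the scanner software's error is highest.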
